A study of Mus musculus with 145 samples.

Results

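Expression of 34 imprinted genes was followed while spermatogonial stem cells (SSCs) of the mouse were reprogrammed to pluripotent cells in culture. The genes were taken from a list of well-studied imprinted loci, each assigned to the parental allele that is normally active. Of the 34 genes, 32 were present among the 24615 genes of the filtered table, 13 of them maternally and 19 paternally expressed, whereas Rian and Peg13 were left out because the table does not list them. All 32 were also among the 17042 genes of the 5C table and 29 were among the 16052 genes of the DMSO table.

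SSCs had been derived from male pups of a cross between C57BL/6 females and DBA/2 males, carried Oct4-EGFP or EGFP, and were grown on mouse embryonic fibroblast feeders, so fibroblasts could enter a collection. Single cells were picked by hand from colonies, which means that the numbers of cells per class describe the cells collected. Modified STRT-seq of the original reprogramming condition, in which no chemical mixture was added, gave 46 libraries on days 0 to 27, and the gPSC-1 line (germline-derived pluripotent stem cells, 1 line, in N2B27 with 2iL medium) at passages 1 and 15 and a line of mouse embryonic stem cells (ESCs) gave 1 library each. The RNA part of scTrio-seq2 gave 8 samples treated with 5C, a mixture of SGC707, vitamin C, EGCG, daphnetin and TUDCA, and 5 treated with the solvent DMSO. The 5C cells were taken on days 12 to 16 and the DMSO cells on days 20 and 24 with a few of day 0, so treatment and day cannot be told apart.

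The authors had sorted the cells into classes from the same transcriptomes. SSC1-4 are cells that still resemble the starting SSCs, RPG1 to RPG4 are the classes that the authors numbered along the successful branch, and fibroblast, early-pluripotency, meiotic and neural cells are classes outside it. UMI counts (molecules, each counted once) were summed per library and class for each combination with 5 cells or more, and libraries served as replicates. These sums came from 36 libraries for SSC1-4 (433094 to 34168335 UMIs), 7 for RPG1, 3 for RPG2, 8 for RPG3 (1570976 to 17474953 UMIs) and 2 for RPG4 (2518163 and 4966558 UMIs). A level is given as CPM, the UMIs of a gene per 1000000 UMIs of the sum, and as mean ± SD over libraries. The cells came from 2 batches of reprogramming, and the authors' table of cells names the batches B1 and B2. Nothing states that the libraries of a batch came from separate cultures, so p-values measure the spread between libraries, which may be technical. The main fits held no term for batch or day, so the spread within a class also takes in differences between batches and days. The 8 germ cell markers summed to between 2385 and 3637 CPM in SSC1-4 and to between 402 and 720 CPM in RPG3. The 6 pluripotency markers summed to between 21.3 and 240 CPM in SSC1-4 and to between 2249 and 2696 CPM in RPG3. Both sums matched the class names, which the authors had given with the help of some of these markers. Of the 8 germ cell markers, 7 fell in RPG3 against SSC1-4, while Sall4 rose (log2 fold change 1.08).

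At an imprinted locus, a differentially methylated region carries DNA methylation on the allele from one parent, and the mark decides which allele is transcribed. In the male germline the paternal pattern is laid down before birth, with methylation upstream of H19 and between Dlk1 and Meg3 and none at the promoters that are methylated in oocytes, such as those of Snrpn, Peg3 and Plagl1. The zinc finger protein ZFP57 binds the methylated motif TGCCGC and, together with TRIM28, protects the mark in early embryos and ESCs. The counts used here do not separate the alleles, so a level is the sum of both.

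Promoters of 3 members that hold this motif, and the stretch shared by a divergent pair, are shown because their genes had some of the larger changes described below. Capitals mark TGCCGC or its reverse complement GCGGCA, and each window runs 5′ to 3′ on the strand of the gene from 250 bases before the RefSeq start to 20 bases after it, on GRCm38. The Snrpn window is the minus strand of chr7:60005180-60005449, the Meg3 window the plus strand of chr12:109540746-109541015, and the Plagl1 window the plus strand of chr10:13090582-13090851. The last sequence is the minus strand of chr7:6730420-6730582, the 163 bases between the starts of Peg3 and Usp29, which are transcribed away from each other.
Snrpn: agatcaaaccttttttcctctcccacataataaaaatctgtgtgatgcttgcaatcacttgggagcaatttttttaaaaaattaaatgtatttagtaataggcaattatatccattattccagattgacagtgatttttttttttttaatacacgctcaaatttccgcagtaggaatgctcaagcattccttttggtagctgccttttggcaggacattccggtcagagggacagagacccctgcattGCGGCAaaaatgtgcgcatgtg
Meg3: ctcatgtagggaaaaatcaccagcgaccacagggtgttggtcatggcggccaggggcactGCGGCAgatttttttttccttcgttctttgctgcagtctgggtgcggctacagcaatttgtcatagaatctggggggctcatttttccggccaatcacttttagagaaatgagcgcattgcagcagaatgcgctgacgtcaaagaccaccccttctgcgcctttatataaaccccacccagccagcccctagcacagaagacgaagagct
Plagl1: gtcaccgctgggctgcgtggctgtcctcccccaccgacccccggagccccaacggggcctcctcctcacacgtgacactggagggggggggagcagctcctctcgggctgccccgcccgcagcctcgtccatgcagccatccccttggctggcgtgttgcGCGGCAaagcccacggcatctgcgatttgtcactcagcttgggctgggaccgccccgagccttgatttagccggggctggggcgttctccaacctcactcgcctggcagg
between Peg3 and Usp29: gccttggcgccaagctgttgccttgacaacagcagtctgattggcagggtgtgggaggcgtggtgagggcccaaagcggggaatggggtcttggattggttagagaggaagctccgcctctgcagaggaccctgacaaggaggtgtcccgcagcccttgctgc

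RefSeq windows of 300 bases (250 before to 50 after a start) were found for 26 of the 32 members, with 41 windows in all. The motif, searched as TGCCGC on both strands, occurred in 10 of the 41 windows (24.4%) and in 11.6% of all 32851 windows. The members' windows had a median of 13 CpG sites against 7 in all windows, and among windows with 20 or more CpG sites the motif occurred in 27.8%. A match in these letters is a description and not a bound site. In the GENCODE annotation of GRCm38, Snrpn (ENSMUSG00000102252) lies on the minus strand of chr7:59982495-60140219 and Peg3 (ENSMUSG00000002265) on that of chr7:6703892-6730431. The growth-control cluster at the end of chromosome 7 holds H19 (chr7:142575529-142578143), Igf2 (chr7:142650766-142666816), Kcnq1ot1 (chr7:143203458-143296549), Cdkn1c (chr7:143458339-143461050) and Phlda2 (chr7:143501545-143503150). Dlk1 (chr12:109452823-109463336) and Meg3 (chr12:109541001-109571726) are neighbours on chromosome 12.

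The comparison of RPG3, a class with high pluripotency markers, with SSC1-4 asks how the imprinted genes differ between these classes. Of the 18 paternally expressed members that passed the filter on low counts, 11 rose and 6 fell, with a median log2 fold change of 0.89. Of the 13 maternally expressed members, 2 rose and 5 fell, with a median of -1.11, while the median over all 16392 genes tested was -0.15. The difference between the allele groups was not tested. In all, 24 of 31 members tested were called (77.4%) at an adjusted p below 0.05 in edgeR's quasi-likelihood test with Benjamini-Hochberg adjustment, beside 61.9% of all genes tested (28% rose and 33.9% fell), so a change as such was common and the count says little about imprinting. The list was chosen with earlier results of these data known, and its counts are a description.

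Snrpn, a spliceosomal protein gene of the Prader-Willi region, rose in RPG2, RPG3 and RPG4, and its rise in RPG1 was lost in a fit with a term for each library (-0.021). Over the 36 SSC1-4 libraries its level ran from 0 to 36.3 CPM with a median of 15.3, over the 7 RPG1 libraries from 26.1 to 95.7 CPM with a median of 38.3, and over the 8 RPG3 libraries from 290 to 566 CPM with a median of 439. The RPG2 libraries had 318, 307 and 270 CPM and the RPG4 libraries 511 and 426 CPM. No library of RPG2, RPG3 or RPG4 overlapped with an SSC1-4 library. The log2 fold change over SSC1-4 was 4.93 ± 0.17 (SE) in RPG3 (adjusted p = 4.42e-31), 4.43 ± 0.24 in RPG2 (adjusted p = 7.11e-21) and 4.83 ± 0.27 in RPG4 (adjusted p = 5.45e-20). Among the 261 RPG3 cells the 14 cells with the most Snrpn UMIs held 9.61% of them, and the median cell had 135 UMIs, so the level was spread over the class. Within batch B1 alone the RPG3 difference was 4.72 and within batch B2 alone it was 5.21 on the log2 scale.

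Peg3, a zinc finger gene with roles in growth, was also higher in RPG2, RPG3 and RPG4. Its level ran from 1.14 to 55.1 CPM in SSC1-4 (median 14.4) and from 125 to 246 CPM in RPG3 (median 163), and the groups did not overlap. RPG2 had 186, 110 and 55.6 CPM and RPG4 had 251 and 325 CPM, all above the highest SSC1-4 library, the lowest RPG2 library by a small margin. The log2 fold change was 3.68 ± 0.19 in RPG3 (adjusted p = 8.97e-24), 3.12 ± 0.30 in RPG2 and 4.21 ± 0.29 in RPG4. Usp29, the deubiquitinase gene that starts 163 bases away on the other strand, did not move alike. It had 7.09 ± 4.67 CPM in SSC1-4 (n = 36), 7.71 ± 4.01 in RPG2 (n = 3), 11.5 ± 7.67 in RPG3 (n = 8) and 48.4 and 61.6 CPM in the RPG4 libraries. The Usp29 call in RPG3 (0.92 ± 0.34, adjusted p = 0.018) was lost without day 20 replicate 2 (0.63) and turned to -1.02 within the libraries that held both classes, whereas both RPG4 libraries lay above every SSC1-4 library (2.95 ± 0.46, adjusted p = 1.13e-06).

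Impact, which restrains the translational stress kinase GCN2, and Kcnq1ot1, the noncoding RNA that silences its neighbours on the paternal chromosome, were higher in RPG2, RPG3 and RPG4. Impact ran from 0 to 28.8 CPM in SSC1-4 (median 14.7) and from 52.9 to 206 CPM in RPG3 (median 70.5), with no overlap and a log2 fold change of 2.85 ± 0.21 (adjusted p = 1.64e-17). Kcnq1ot1 ran from 57.8 to 261 CPM in SSC1-4 (median 96.5) and from 125 to 306 CPM in RPG3 (median 219), with overlap and a log2 fold change of 1.26 ± 0.16 (adjusted p = 2.03e-09). The call of Kcnq1ot1 in RPG2 was lost within batch B2 (0.58) and with batch as a covariate (0.71). Kcnq1ot1 lies within Kcnq1 on the other strand, and whether reads were counted by strand was not given in the sources used here, so its counts are uncertain.

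Peg10 and Sgce are neighbours on chromosome 6, transcribed away from each other, and Nnat encodes the small membrane protein neuronatin. All 3 were lower in RPG2 than in RPG3. Peg10, a gene of retrotransposon origin needed for the placenta, had 2.55, 0.71 and 0.312 CPM in RPG2, 13.4 to 71.0 CPM in RPG3 (median 56.4) and 15.5 and 21.7 CPM in RPG4. Sgce, which encodes a sarcoglycan, had 0.283, 0.947 and 0 CPM in RPG2, 2.55 to 41.7 CPM in RPG3 (median 25.2) and 110 and 77.5 CPM in RPG4. Nnat had 1.41, 13 and 12.9 CPM in RPG2, 5.09 to 166 CPM in RPG3 (median 109) and 501 and 460 CPM in RPG4, against 11.5 to 135 CPM in SSC1-4 (median 67.6). The RPG3 and RPG2 groups did not overlap for Peg10 and Sgce and overlapped for Nnat.

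RPG3 was compared with RPG2 directly, and 4 of 27 members tested rose and 0 fell (14.8%, beside 4.30% of all 13611 genes tested, of which 2.45% rose and 1.84% fell). The 4 were Peg10 (log2 fold change 5.53 ± 0.74, adjusted p = 0.000384), Sgce (5.90 ± 1.01, adjusted p = 0.00277), Phlda2 (3.93 ± 0.71, adjusted p = 0.00422) and Nnat (3.45 ± 0.75, adjusted p = 0.0139). All RPG2 libraries and 3 of the 8 RPG3 libraries belonged to batch B2, and within B2 none of the 4 was called, at 4.70 for Peg10, 4.65 for Sgce, 3.99 for Phlda2 and 2.52 for Nnat. The RPG2 libraries were of days 12 and 14, and the RPG3 libraries apart from day 12 replicate 2 were of days 18 to 23. Class and day can therefore not be fully told apart in this comparison. The call of Nnat was lost without day 12 replicate 2 of RPG2 (2.93). At an unadjusted p below 0.05 there were 8 members.

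**Figure D1:**
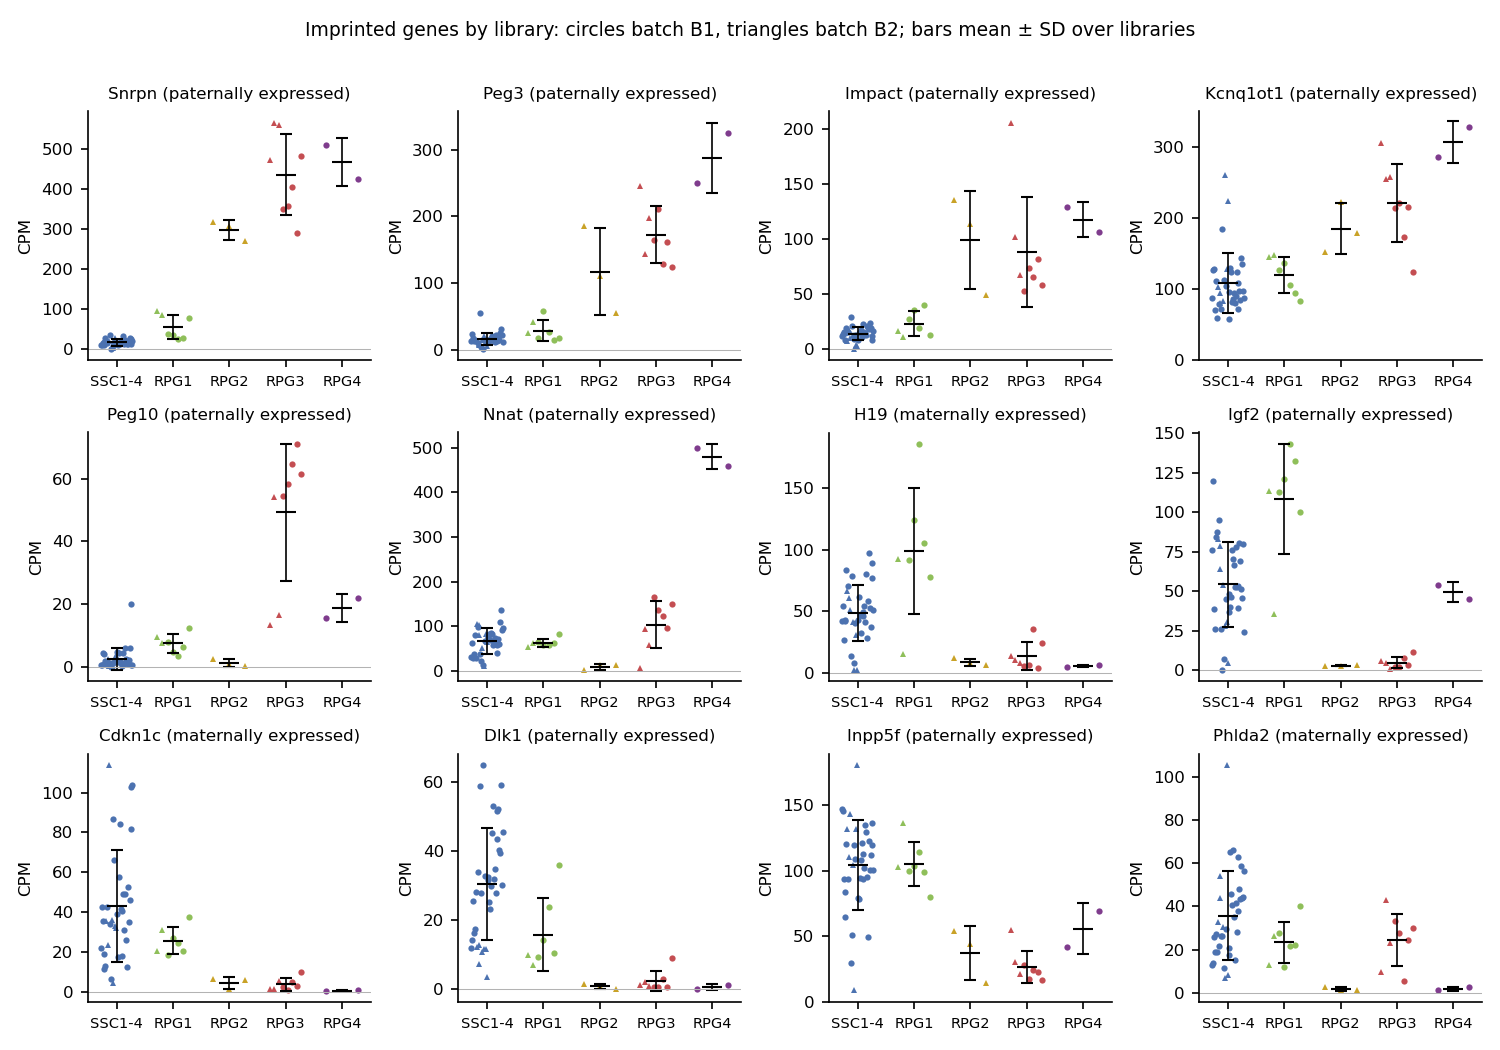
CPM of 12 imprinted genes in each library of SSC1-4 (36 libraries), RPG1 (7), RPG2 (3), RPG3 (8) and RPG4 (2), with circles for batch B1, triangles for batch B2 and bars for mean ± SD. Snrpn, Peg3 and Impact of RPG3 lie above all SSC1-4 libraries, Peg10 and Nnat are low in RPG2, and Igf2 is high in RPG1 (35.8 to 143 CPM), low in RPG3 (0.687 to 11.5 CPM) and 54.0 and 44.9 CPM in RPG4.

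Other paternally expressed members changed less in RPG3. Nespas, a noncoding RNA antisense to the Gnas cluster, went from 23.7 ± 8.93 to 45.9 ± 24.5 CPM (log2 fold change 1.18 ± 0.20, adjusted p = 1.73e-06), Mest, a gene of the hydrolase fold, from 13.7 ± 8.82 to 23.1 ± 14.8 CPM (1.0 ± 0.34, adjusted p = 0.00968) and the retrogene Mcts2, which is nested in H13, from 96 ± 21.6 to 113 ± 22.8 CPM (0.45 ± 0.12, adjusted p = 0.00107), with n = 36 and n = 8 libraries throughout. All of these groups overlapped, and the Mest call was lost without day 18 replicate 5 (0.77). Nespas shares 11117 bases with Gnas on the opposite strand, so their counts cannot be fully told apart.

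Several paternally expressed members fell in RPG3. Igf2, the fetal growth factor, ran from 0 to 119 CPM in SSC1-4 (median 52.5) and from 0.687 to 11.5 CPM in RPG3 (median 3.76), with a log2 fold change of -3.40 ± 0.43 (adjusted p = 9.22e-10). Dlk1, a membrane protein of the Notch ligand family, ran from 3.56 to 64.9 CPM in SSC1-4 and from 0.749 to 9.10 CPM in RPG3 (median 1.18), a change of -3.42 ± 0.44 (adjusted p = 2.36e-09). The groups overlapped for both genes, at the lower end of SSC1-4. Plagl1, a zinc finger regulator of other imprinted genes, changed by -2.99 ± 0.48, the phosphatase gene Inpp5f by -1.77 ± 0.23, the MAGE family gene Ndn by -1.60 ± 0.29 and the splicing factor retrogene Zrsr1 by -1.02 ± 0.19, with adjusted p between 1.53e-09 and 5.07e-06. Zrsr1 did not overlap, with 54.3 to 195 CPM in SSC1-4 and 10.8 to 53.0 CPM in RPG3, and it is nested in Commd1, so its reads may be shared.

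Members of the same domain differed from each other. In the Prader-Willi region of chromosome 7, Snrpn rose while Ndn fell from 62.5 ± 27.5 CPM (n = 36) to 17.5 ± 9.17 CPM (n = 8) in RPG3. In RPG4, Ndn was at 58.4 and 83.6 CPM, inside the SSC1-4 range of 1.64 to 115 CPM. Magel2, another MAGE gene of that region, was at 0 to 1.31 CPM in SSC1-4 and at 4.77 and 11.3 CPM in RPG4 (log2 fold change 5.64 ± 1.03, adjusted p = 2.01e-05). In RPG3, where it had 0 to 2.01 CPM, it did not pass the filter over all libraries and was called within batch B1 alone (2.18, adjusted p = 0.047).

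Among maternally expressed members, Cdkn1c, the cyclin-dependent kinase inhibitor p57, declined over the branch. It ran from 4.62 to 114 CPM in SSC1-4 (median 35.9), from 18.7 to 37.5 CPM in RPG1 (median 24.5) and from 1.05 to 9.89 CPM in RPG3 (median 2.65). It had 6.51, 1.18 and 5.92 CPM in RPG2 and 0.397 and 0.805 CPM in RPG4. The log2 fold change was -3.27 ± 0.44 in RPG3 (adjusted p = 8.03e-09), -2.96 ± 0.67 in RPG2 (adjusted p = 0.000309) and -6.01 ± 1.09 in RPG4 (adjusted p = 1.95e-05), and the difference in RPG1 (-0.73) did not pass the test.

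H19, a noncoding RNA of growth control, ran from 2.31 to 97.3 CPM in SSC1-4 (median 47.0) and from 4.16 to 35.9 CPM in RPG3 (median 9.21). It had 11.9, 7.82 and 6.55 CPM in RPG2 and 4.77 and 6.24 CPM in RPG4. Each group lay inside the range of SSC1-4, whose lower libraries reach 2.31 CPM. The log2 fold change was -1.65 ± 0.35 in RPG3 (adjusted p = 5.62e-05), -2.24 ± 0.53 in RPG2 (adjusted p = 0.000496) and -3.12 ± 0.70 in RPG4 (adjusted p = 0.000399). H19 and Igf2 share enhancers and are normally expressed from opposite alleles, and here both were lower in RPG3 than in SSC1-4.

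Meg3 and Mirg, noncoding RNAs of the Dlk1 domain on chromosome 12, were lower in RPG3 than in SSC1-4. Meg3 had 9.28 ± 5.15 CPM in SSC1-4 (n = 36) and 0.736 ± 0.577 CPM in RPG3 (n = 8), a log2 fold change of -3.37 ± 0.49 (adjusted p = 3.67e-08). Mirg had 1.72 ± 1.94 and 0.248 ± 0.362 CPM, a change of -3.11 ± 0.89 (adjusted p = 0.00221). Both groups overlapped for either gene.

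Gnas, the stimulatory G protein subunit, fell by 1.11 in RPG3 on the log2 scale (SE 0.33, adjusted p = 0.00272). Ube3a, a ubiquitin ligase whose imprint acts mainly in neurons, and Ppp1r9a, which encodes neurabin, rose. Ube3a went from 66.7 ± 21.5 to 121 ± 54.3 CPM (1.07 ± 0.17, adjusted p = 3.07e-07) and Ppp1r9a from 10.6 ± 5.47 to 38.8 ± 19.4 CPM (2.06 ± 0.28, adjusted p = 6.67e-09), both with overlap. Phlda2, which restrains placental growth, ran from 6.93 to 106 CPM in SSC1-4 (median 31.7) and from 5.50 to 42.9 CPM in RPG3 (median 26), and did not pass the test (-0.30). It was much lower in RPG2 (2.83, 1.18 and 1.09 CPM) and RPG4 (1.19 and 2.42 CPM), whose libraries all lay below SSC1-4.

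Only 2 libraries held both RPG3 and SSC1-4 at 5 or more cells. In a fit over these with a term for each library, 17 of the 24 calls remained, and Gnas, Mcts2, Meg3, Mest, Mirg, Usp29 and Zrsr1 were not called. Within batch B1 all 24 were called, beside Magel2 and Asb4 (-4.33). Within batch B2, with 3 RPG3 libraries, 12 of the 24 were called, with Nnat at -0.18. For fits by block, within a batch or with a library left out, the share of all genes called is not given in this report. Counts from such fits thus do not show whether members kept their calls more or less often than other genes.

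**Figure D2:**
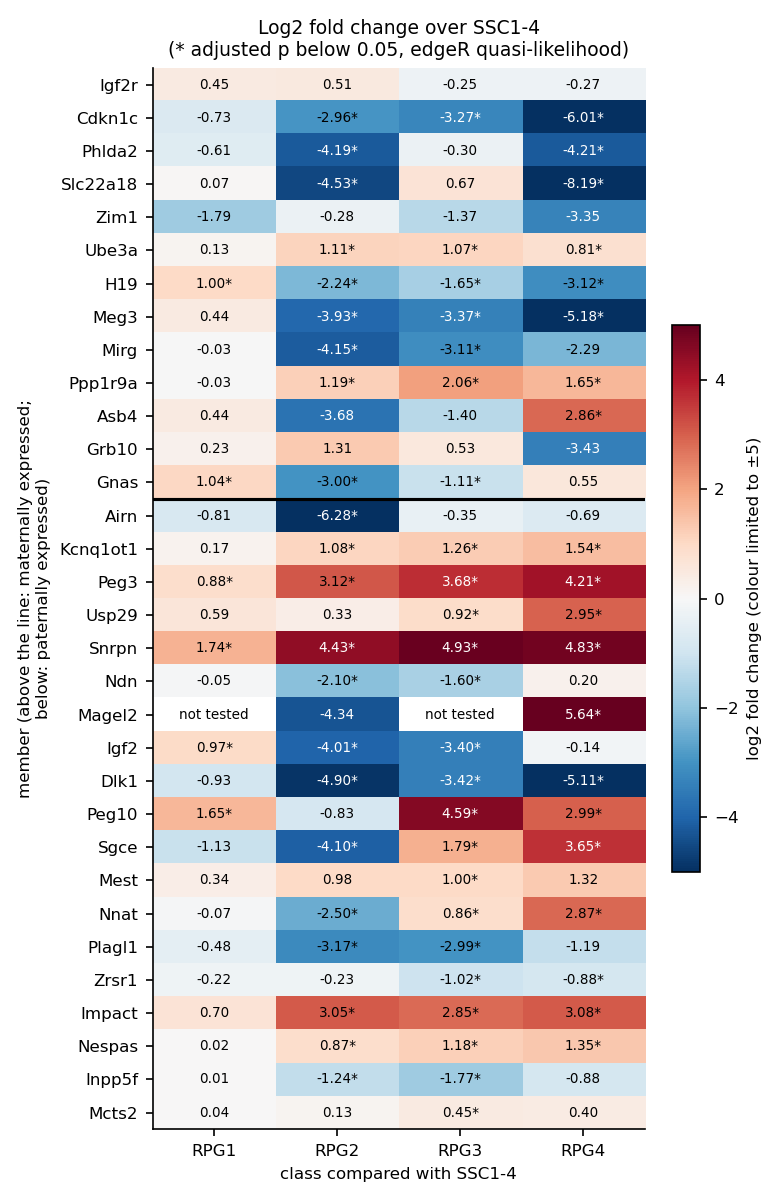
Log2 fold change of each of the 32 members in RPG1, RPG2, RPG3 and RPG4 over SSC1-4, with maternally expressed members above the line and paternally expressed members below it, and an asterisk where the adjusted p was below 0.05. Snrpn, Peg3 and Impact are positive from RPG2 to RPG4, Cdkn1c, H19, Meg3 and Dlk1 negative, and Igf2 is 0.97 in RPG1, -3.40 in RPG3 and -0.14 in RPG4.

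Of 32 members tested against SSC1-4, 7 rose and 15 fell in RPG2 (68.8% called, beside 42.8% of all genes tested, of which 21.8% rose and 21% fell), with a median log2 fold change of -2.96 over the 13 maternally and -0.83 over the 19 paternally expressed members (all genes, -0.27). Besides the members above, Gnas had 1.98, 0.237 and 1.87 CPM, all below the SSC1-4 range of 2.31 to 26.8 CPM, and changed by -3.00 ± 0.62 (adjusted p = 8.05e-05). Airn, the antisense RNA of Igf2r, was at 0 in all 3 RPG2 libraries, at least 2.79-fold lower than the SSC1-4 mean when 3 counts over the group are taken as the limit, and its call was lost without any one of the 3 libraries. Airn and Igf2r share 28354 bases on opposite strands, so the counts of both are uncertain in every comparison. In a fit with a block for each library, which used 2 libraries with both classes, 14 were called of the 19 of these 22 that were tested (Airn, Mirg and Slc22a18 were not). Ppp1r9a reached 55.5 CPM in day 12 replicate 2 and 4.50 and 6.23 CPM in the others, and its call (1.19 ± 0.50) turned to -0.74 without that library. Within batch B2, which holds all RPG2 libraries, 13 of the same 19 were called.

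In RPG4, 13 of 32 members rose and 7 fell against SSC1-4 (62.5% called, beside 32.2% of all genes tested, of which 14.6% rose and 17.6% fell). The median log2 fold change was 1.35 over the 19 paternally and -3.12 over the 13 maternally expressed members (all genes, -0.42). Nnat (2.87 ± 0.30, adjusted p = 4.94e-11) and Sgce (3.65 ± 0.70, adjusted p = 4.21e-05) were among those that rose. Asb4, which encodes a ubiquitin ligase subunit, had 3.97 and 14.5 CPM in RPG4 against 0 to 10.0 CPM in SSC1-4, and its call was lost without day 20 replicate 2 (1.66). With 1 RPG4 library left out, which assumes that the remaining one varies like SSC1-4, between 14 and 16 of the 20 were called. The calls of Ppp1r9a, Slc22a18 and Ube3a were lost without either library, those of Peg10 and Zrsr1 without day 20 replicate 2 and that of Nespas without day 20 replicate 1. Slc22a18, a transporter gene, was at 0 in both RPG4 libraries, at least 5.59-fold lower than the SSC1-4 mean with 3 counts over the group as the limit. Igf2 had 54.0 and 44.9 CPM in RPG4 and was not called, and over all 33 cells of the class, including those of libraries with fewer than 5, 2 cells held 49.0% of the Igf2 UMIs while the median cell had 2. Only 21 cells of 2 libraries of day 20 stand behind RPG4, and no library held both classes.

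RPG1, the first class of the branch, was compared with SSC1-4. Of 31 members tested, 6 rose and 0 fell (19.4% called, beside 5.42% of all genes tested, of which 2.4% rose and 3.02% fell). They were Snrpn (log2 fold change 1.74 ± 0.24, adjusted p = 2.46e-06), Peg10 (1.65 ± 0.51, adjusted p = 0.0424), Gnas (1.04 ± 0.25, adjusted p = 0.00702), H19 (1.0 ± 0.27, adjusted p = 0.0177), Igf2 (0.97 ± 0.27, adjusted p = 0.0217) and Peg3 (0.88 ± 0.26, adjusted p = 0.0338). All 6 overlapped with SSC1-4. H19 went from 48.7 ± 22.9 to 99.0 ± 51.2 CPM and Igf2 from 54.3 ± 27 to 108 ± 34.9 CPM, both lowest in day 18 replicate 5 of RPG1 with 15.7 and 35.8 CPM. Leaving out 1 RPG1 library left between 2 and 6 calls, with 2 without day 20 replicate 2, 3 without day 18 replicate 3 and 3 without day 20 replicate 8. In the block fit, which used the 2 libraries with both classes, only Igf2 stayed called (1.40, adjusted p = 0.029). Snrpn (-0.021) and Peg10 (-0.12) were at about 0 in that fit. The Igf2 call of the main test was lost without day 18 replicate 3, day 20 replicate 2, day 20 replicate 8 or day 23 replicate 1. It was also lost with sums per batch and day. Within batch B1, 3 of the 6 were called (Snrpn 1.30, H19 1.17, Igf2 1.10), and within batch B2, with 2 RPG1 libraries, none was. The log2 fold changes within B2 were 2.46 for Snrpn, 2.91 for Peg10, 1.54 for Peg3, 1.46 for Gnas, 0.54 for H19 and 0.61 for Igf2.

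Against RPG1, RPG3 had 10 members higher and 11 lower of 27 tested (77.8% called, beside 51.5% of all genes tested, of which 26.2% rose and 25.3% fell). In all, 7 libraries held both classes, and the block fit over them called 23 members, including all 21. Igf2 was the member with the largest decrease (-4.42 ± 0.43, adjusted p = 2.21e-08), followed by Meg3 (-3.86 ± 0.64, adjusted p = 2.93e-05). Snrpn (3.16 ± 0.29, adjusted p = 8.21e-09) and Peg10 (2.91 ± 0.37, adjusted p = 9.21e-07) had the largest increases. Igf2 and Snrpn did not overlap between the classes. Igf2r, the receptor that clears IGF2, was called here (-0.72 ± 0.26, adjusted p = 0.0215) and not against SSC1-4, and the call was lost without day 20 replicate 8 of RPG1 (-0.65). Within batch B2, 9 of the 21 were called, and Nnat was not among them. The call of Nnat was also lost when any of several libraries of either class was left out (0.77 to 0.90).

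Genes that guard or erase imprints were read from a list of 14. In RPG3, 10 rose and 3 fell against SSC1-4, with a median log2 fold change of 1.52, beside the 61.9% of all genes that were called in this comparison (28% rose and 33.9% fell). Among those that rose, the demethylation genes Tet1 and Tet2 changed by 5.57 and 5.38, and Zfp57 and Trim28 by 3.55 and 1.82. Dnmt3l, the cofactor that directs new methylation in germ cells, changed by 5.29. The methyltransferase gene Dnmt3b changed by 2.78 and Dppa3, which protects marks in the egg, by 1.68. Among those that fell, Ctcfl, a testis relative of the insulator protein CTCF, changed by -4.33. Tet3 changed by -1.43 and the maintenance methyltransferase gene Dnmt1 by -0.34. Of 25 further imprinted genes, 18 were tested in RPG3 and 3 rose (Cd81, Commd1 and Ddc) while 6 fell, with a median of -0.38, beside the same shares of all genes.

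Markers of fibroblasts and feeder cells moved with some of these comparisons. The 15 markers summed to between 53.1 and 268 CPM in SSC1-4 and to between 197 and 581 CPM in RPG3, where 7 of the 15 had a mean below 1 CPM. Of these markers, only Sparc and Vim rose in RPG3, while Col1a1, Col5a1, Fbn1, Pdgfra, Pdgfrb and Postn fell, with a median log2 fold change of -1.79. The 15 markers summed to between 448 and 531 CPM in RPG2 and to 343 and 348 CPM in RPG4, all above SSC1-4. There too, Sparc and Vim were the only ones that rose, while others fell. The part of the markers in the results was not tested.

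The fibroblast class was compared with SSC1-4 to see how the members stand in a class outside the branch. Of 31 members tested, 9 rose and 0 fell (29% called, beside 5.12% of all genes tested, of which 4.58% rose and 0.541% fell). H19 had 250, 266, 71.6, 113 and 457 CPM in the 5 fibroblast libraries, against 2.31 to 97.3 CPM in SSC1-4, a log2 fold change of 2.18 ± 0.28 (adjusted p = 3.94e-08). Igf2 had 285, 288, 114, 136 and 352 CPM, a change of 2.04 ± 0.29 (adjusted p = 3.5e-07). For both genes, the highest value came from day 27 replicate 5 and the lowest from day 14 replicate 2, which overlapped with SSC1-4.

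Grb10, an adaptor that restrains insulin signalling, changed by 3.69 ± 0.46 (adjusted p = 1.76e-08) and Meg3 by 2.52 ± 0.33 (adjusted p = 5.28e-08) in the fibroblast class. Airn, Dlk1, Impact, Peg3 and Zim1 rose too. The calls of Dlk1, Peg3 and Zim1 were lost without day 27 replicate 5, and that of Impact without day 8 replicate 1 or without day 10 replicate 1. The fibroblast markers summed to between 536 and 3354 CPM in this class, and its germ cell markers to between 2070 and 2637 CPM, near the SSC1-4 range, so the class name was only partly matched. In the block fit over 4 libraries with both classes none was called of the 8 of these 9 that were tested (Airn was not), with H19 at 1.40 and Igf2 at 1.29.

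Early-pluripotency, meiotic and neural cells were compared with SSC1-4 in the same way. In early-pluripotency cells edgeR called 0 of 32 members (7 at an unadjusted p below 0.05, and 1 by DESeq2), beside 2.38% of all genes tested, of which 1.27% rose and 1.11% fell. In meiotic cells only Snrpn was called of 31 (3.23%, beside 2.44% of all genes tested, of which 1.17% rose and 1.27% fell). It had 4.05 to 9.84 CPM (median 5.86) there, a log2 fold change of -1.32 ± 0.32 (adjusted p = 0.0144), which was -0.01 in the block fit and was no longer called without day 16 replicate 1, 2, 3 or 5.

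In neural cells 6 of 31 members rose and 1 fell (22.6% called, beside 7.81% of all genes tested, of which 4.03% rose and 3.78% fell). Peg3 ran from 6.53 to 326 CPM over the 12 neural libraries (median 19.8), a log2 fold change of 1.92 ± 0.32 (adjusted p = 5.26e-05) over SSC1-4, and Peg10 from 0 to 70.6 CPM (median 2.29), a change of 2.3 ± 0.52 (adjusted p = 0.00272). Both ranges overlapped widely with SSC1-4. The fibroblast and feeder markers summed to between 66.3 and 860 CPM in neural cells, against 53.1 to 268 CPM in SSC1-4, with Col3a1, Pdgfrb and Vim called higher, and their part in the result was not tested. In the block fit over 10 libraries with both classes none was called of the 6 of these 7 that were tested (Airn was not), and Peg3 was at -0.01 and Peg10 at -0.41.

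In the 5C cells of scTrio-seq2, RPG3 was compared with SSC1-4 in a second set of libraries. Of 23 members tested, 8 rose and 6 fell (60.9% called, beside 50.4% of all genes tested, of which 24.9% rose and 25.4% fell). Of 16 paternally expressed members 7 rose and 4 fell, with a median log2 fold change of -0.0034, and of 7 maternally expressed members 1 rose and 2 fell, with a median of -0.37 (all genes, -0.03). Snrpn had 7.60 to 19 CPM (median 15.5) in the 8 SSC1-4 samples and 116 to 218 CPM (median 139) in the 6 RPG3 samples, a log2 fold change of 3.71 ± 0.23 (adjusted p = 3.83e-13). Peg3 had 6.30 to 37.5 CPM and 170 to 375 CPM, a change of 4.05 ± 0.26 (adjusted p = 5.8e-13). Neither gene overlapped between the classes. In the block fit over the 6 samples that held both classes, 10 were called of the 12 of these 14 that were tested, Mcts2 (0.44) and Ppp1r9a (1.24) were not, and Dlk1 and Peg10 were not tested.

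Impact (2.39 ± 0.24) and Kcnq1ot1 (1.77 ± 0.34) also rose in 5C RPG3. H19 had 54.0 to 149 CPM (median 95.8) in SSC1-4 and 5.23 to 32.1 CPM (median 7.04) in RPG3, a change of -2.93 ± 0.32 (adjusted p = 2.09e-08), and Igf2 had 53.5 to 144 CPM and 1.02 to 11.4 CPM, a change of -3.83 ± 0.39 (adjusted p = 5.84e-09), both without overlap. Cdkn1c (-2.62 ± 0.38), Dlk1 (-3.56 ± 0.74), Inpp5f (-1.41 ± 0.24) and Ndn (-2.60 ± 0.32) fell as well, again without overlap. The calls of Mcts2 (adjusted p = 0.048) and Ppp1r9a (adjusted p = 0.04) were lost when any of several samples was left out, and Ppp1r9a was at 0.58 without 5C replicate 6. No member was called in 5C RPG1 against SSC1-4 by edgeR or DESeq2, with 4 of 21 at an unadjusted p below 0.05, and over all 10750 genes edgeR called 0, which is 0% in either direction, with 793 at an unadjusted p below 0.05 and 22 called by DESeq2 (13 higher and 9 lower).

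5C and DMSO cells of the same class were then compared. In RPG3, 4 of 25 members were higher and 3 lower in 5C (28% called, beside 15.6% of all genes tested, of which 6.36% rose and 9.26% fell). Peg3 had 295, 375, 335, 170, 313 and 241 CPM in 5C and 27.5 and 36.3 CPM in DMSO, a log2 difference of 2.74 ± 0.30 (adjusted p = 3.99e-05). Phlda2 had 0 to 8.35 CPM (median 1.49) in 5C and 72.1 and 44.3 CPM in DMSO, a difference of -4.52 ± 0.72 (adjusted p = 0.000554). Neither gene overlapped between the treatments.

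Inpp5f had 9.20 to 37.9 CPM (median 29.6) in 5C RPG3 and 5.28 and 4.95 CPM in DMSO RPG3 (1.99 ± 0.58, adjusted p = 0.0281), Kcnq1ot1 46.0 to 203 CPM against 23.7 and 32.2 CPM (1.38 ± 0.45, adjusted p = 0.0483) and Ube3a 59.0 to 152 CPM against 33.1 and 32.1 CPM (1.13 ± 0.34, adjusted p = 0.034), without overlap. Slc22a18 was at or below 0.254 CPM in 5C and at 3.28 and 6.05 CPM in DMSO (-5.21 ± 1.18, adjusted p = 0.00689). Snrpn was lower in 5C with overlap, at 116 to 218 CPM against 197 and 221 CPM (-0.91 ± 0.23, adjusted p = 0.0124). Leaving out 1 sample left between 2 and 7 calls, with 2 without DMSO replicate 1, 2 without DMSO replicate 2, 4 without 5C replicate 1 and 4 without 5C replicate 5. The calls of Inpp5f, Kcnq1ot1, Snrpn and Ube3a were lost without either DMSO sample and that of Slc22a18 without DMSO replicate 1. Without DMSO replicate 2, where 24 members were tested, Phlda2 and Slc22a18 did not both stay called. Without 5C replicate 1 the calls of Inpp5f, Kcnq1ot1 and Ube3a were lost, and without 5C replicate 7 those of Inpp5f and Kcnq1ot1. Without 5C replicate 5 the calls of Kcnq1ot1 and Ube3a were lost. In that fit, where 22 members were tested, Phlda2, Slc22a18 and Snrpn did not all stay called either. The call of Kcnq1ot1 was also lost without 5C replicate 8, with DESeq2 size factors and with no filter on low counts. With either DMSO sample left out, 1 DMSO sample remains and is assumed to vary like the 5C samples. Summed germ cell markers were between 542 and 853 CPM in 5C RPG3 and between 258 and 270 CPM in DMSO RPG3. Fibroblast and feeder markers summed to between 347 and 967 CPM in 5C RPG3 and between 129 and 197 CPM in DMSO RPG3, and pluripotency markers to between 2357 and 3118 CPM and between 3325 and 3571 CPM. Of the pluripotency markers, Nanog, Tdgf1 and Utf1 were called lower in 5C and Sox2 higher. Of the 15 fibroblast and feeder markers only Vim was called, higher in 5C. The mean was below 1 CPM for 8 of these 15 in 5C and for 11 in DMSO. Dazl, Ddx4, Sall4 and Tex101 of the germ cell markers were called higher in 5C. The part of all these markers in the differences was not tested.

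**Figure D3:**
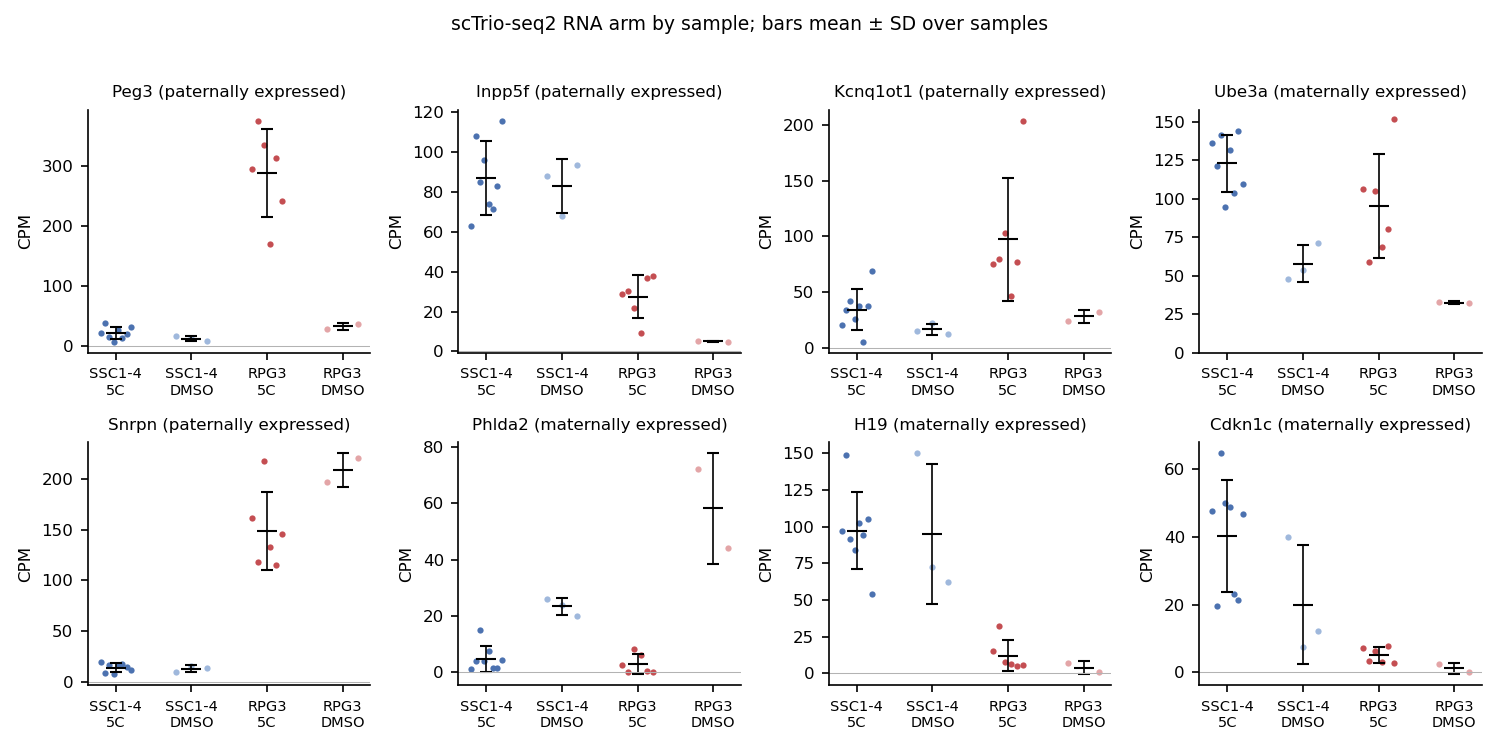
CPM of 8 imprinted genes per scTrio-seq2 sample in SSC1-4 (8 samples in 5C, 3 in DMSO) and RPG3 (6 in 5C, 2 in DMSO), with bars for mean ± SD. Peg3 of RPG3 lies between 170 and 375 CPM in 5C and at 27.5 and 36.3 CPM in DMSO, and Phlda2 is lower in 5C in both classes.

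Phlda2 was lower in 5C in the other classes too. It had 1.27 to 15 CPM (median 3.89) in 5C SSC1-4 and 26.2, 23.9 and 20.1 CPM in DMSO SSC1-4 (-2.27 ± 0.59, adjusted p = 0.00693), and 3.75, 1.27, 5.49 and 1.15 CPM in 5C RPG1 against 38.8 and 51.0 CPM in DMSO RPG1 (-4.0 ± 0.93, adjusted p = 0.011). None of these groups overlapped. The SSC1-4 call was lost in a fit with the sample number of the labels as a block. The RPG1 call was lost without DMSO replicate 2 (-3.78), where 1 DMSO sample remains and the 5C samples give the spread.

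Of 26 members tested in SSC1-4, 2 were higher and 3 lower in 5C (19.2% called, beside 21.3% of all genes tested, of which 10.7% rose and 10.6% fell), a share no larger than that of other genes. Mest had 11.3 to 47.6 CPM (median 20.3) in 5C and 2.72, 1.02 and 3.88 CPM in DMSO (3.15 ± 0.59, adjusted p = 0.000461) and Dlk1 3.31 to 18.9 CPM (median 9.19) against 37.5, 37.2 and 32 CPM (-1.92 ± 0.41, adjusted p = 0.00153), both without overlap. Ube3a was higher in 5C (1.05 ± 0.20, adjusted p = 0.000478) and Zrsr1 lower (-0.80 ± 0.22, adjusted p = 0.00971), the latter no longer called without DMSO replicate 4 or without DMSO replicate 5. Without DMSO replicate 3 the count was 8. Germ cell markers summed to between 2778 and 3232 CPM in 5C SSC1-4 and between 3557 and 3632 CPM in DMSO SSC1-4, with Ddx4, Mael and Tex101 called lower in 5C. Pluripotency markers summed to between 79.3 and 258 CPM and between 31.9 and 138 CPM, with L1td1, Nanog, Sox2 and Tdgf1 called higher in 5C, and the part of these markers was not tested. In RPG1, 2 of 19 members were called (10.5%, beside 5.61% of all genes tested, of which 2.16% rose and 3.45% fell), Phlda2 and Kcnq1ot1. Kcnq1ot1 was at 0 in both DMSO samples, which hold 6 and 10 cells, and at least 7.60-fold higher in 5C with 3 counts over the group as the limit, and its call was lost without 5C replicate 2, 5C replicate 8 or DMSO replicate 2. Of the pluripotency markers, Tdgf1 and Utf1 were called lower in 5C RPG1, and the 6 summed to between 263 and 497 CPM in 5C and between 492.6 and 512 CPM in DMSO. Their part in the result was not tested.

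The difference between RPG3 and SSC1-4 was itself compared between 5C and DMSO with an interaction term. It was called for 2 of 28 members (7.14%, beside 9.63% of all genes tested, of which 4.03% were higher and 5.60% lower), so the share was no larger than that of other genes. Inpp5f had an interaction of 1.96 ± 0.47 (adjusted p = 0.00593) and Peg3 one of 1.98 ± 0.51 (adjusted p = 0.0111) on the log2 scale, which means a smaller decrease of Inpp5f and a larger increase of Peg3 from SSC1-4 to RPG3 in 5C. The Peg3 call was lost without DMSO replicate 1 of RPG3 (1.8) or DMSO replicate 3 of SSC1-4 (1.63), and that of Inpp5f without DMSO replicate 2 of RPG3 (1.89). The count was 5 without 5C replicate 5 of RPG3. A fit without a DMSO sample of RPG3 leaves 1, which is assumed to vary like the other groups. In the same interaction 5 of 8 germ cell markers were higher (Dazl, Ddx4, Dmrt1, Mael and Tex101, list median 1.51) and 3 of 6 pluripotency markers lower (L1td1, Nanog and Tdgf1, list median -2.72), and their part in the result was not tested.

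The day 0 cells, the gPSC-1 line and the ESC line were measured in 1 library each, so their levels had no replicate check and were not tested. Intervals are exact Poisson 95% intervals and cover counting error only. Snrpn was at 9.06 CPM (7.68 to 10.6) on day 0, at 213 CPM (206 to 221) in gPSC-1 passage 1, at 153 CPM (146 to 160) in passage 15 and at 133 CPM (127 to 139) in ESCs. All 3 pluripotent libraries lay far above day 0. Impact was at 11.4, 148, 160 and 74.5 CPM in the same order.

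Peg3 and Kcnq1ot1 differed between the passages of the line. Peg3 was at 13.4 CPM (11.7 to 15.2) on day 0, 44.4 CPM (41.0 to 48.0) in passage 1, 205 CPM (196 to 213) in passage 15 and 66.6 CPM (62.5 to 70.9) in ESCs, and Kcnq1ot1 at 88.3, 225, 423 and 116 CPM. Plagl1 was at 18, 22.8, 122 and 42.5 CPM, Grb10 at 3.61, 7.05, 77.6 and 54.0 CPM and Ube3a at 56.6, 63.9, 185 and 51.3 CPM. Each of these was highest in passage 15. The fibroblast and feeder markers summed to 124, 640, 1041 and 827 CPM in the same order, with 12 of the 15 below 1 CPM in passage 15, and their part in these levels was not tested.

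H19 and Igf2 were near 0 in the lines. H19 was at 41.8 CPM (38.7 to 45.0) on day 0, at 0 in passage 1, which allows up to 0.214 CPM at 3 counts, at 0.462 CPM (0.150 to 1.08) in passage 15 and at 0 in ESCs, which allows up to 0.203 CPM. Igf2 was at 75.0, 2.21, 0.554 and 0 CPM. Cdkn1c was at 22.8, 1.07, 0.462 and 1.01 CPM, and Inpp5f at 145, 10.6, 27.3 and 5.67 CPM.

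Meg3 was at 12.3 CPM (10.6 to 14) on day 0, at 73.5 CPM (69.1 to 78.2) in passage 1, at 30.6 CPM (27.3 to 34) in passage 15 and at 121 CPM (115 to 126) in ESCs. In RPG3 no library was above 1.89 CPM. The median of the cells' own Meg3 levels was 2.59 CPM in passage 1, 0.867 CPM in passage 15 and 78.3 CPM in ESCs, so most gPSC-1 cells lay far below the level of their library. Dlk1, its paternally expressed neighbour, was at 12, 0.142, 3.51 and 0 CPM. Phlda2 was at 13.8, 20.0 and 22.6 CPM on day 0 and in passages 1 and 15 and at 123 CPM (117 to 129) in ESCs.

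**Figure D4:**
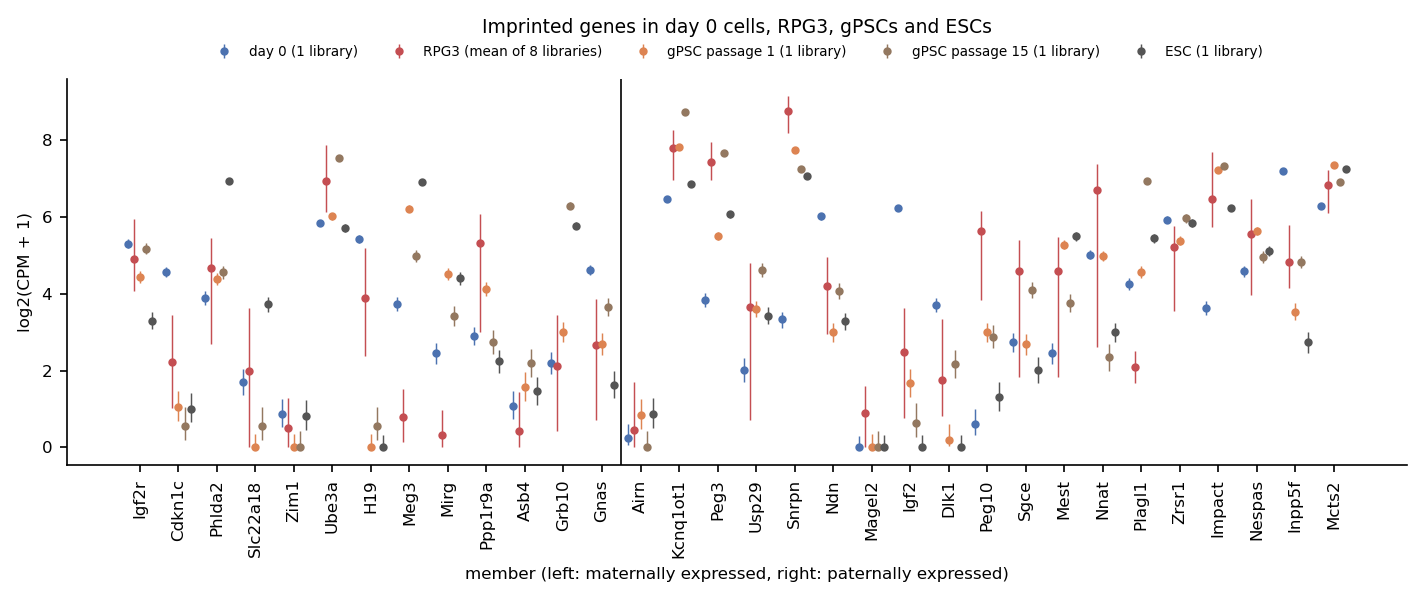
Levels of the members as log2(CPM + 1) on day 0, in RPG3 (mean of 8 libraries, bars from lowest to highest), in gPSC-1 at passages 1 and 15 and in ESCs (1 library each, bars for Poisson 95% intervals). Snrpn and Impact are high in all pluripotent samples, H19 and Igf2 are near 0 in the lines, and Meg3 is low in RPG3 and at 73.5, 30.6 and 121 CPM in the lines.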

How the data were processed

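Single-cell RNA was measured by modified STRT-seq (46 libraries of the original condition, and 1 library each of gPSC-1 passage 1, passage 15 and ESCs) and by the RNA part of scTrio-seq2 (8 samples of 5C and 5 of DMSO). The authors extracted UMIs with UMI-tools, aligned reads with STAR 2.7.2b and assigned genes with featureCounts 2.0.0, per the labels, and deposited UMI counts per gene and cell after filtering cells and genes. The annotation version and strand setting were not given in the sources used here, so coordinates are those of GRCm38. Cells were assigned to classes by the authors' clusters, which for scTrio-seq2 were predicted from the original data. Doublets were not called here.

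Sums of counts were formed for each library and class that had 5 cells or more. CPM is a count per 1000000 UMIs of its sum. The 2 classes of a comparison were fitted with edgeR 4.0.16 (limma 3.58.1, R 4.3.3) by the quasi-likelihood test with TMM scaling and filterByExpr, adjusted by Benjamini-Hochberg over all genes tested and called below 0.05. The SE is the log2 fold change divided by the square root of F. The statistics were tested on simulated data with changes of 1 and 2 on the log2 scale. For RPG3 over SSC1-4, 53% and 74.7% of these changes were called, and for RPG4 over SSC1-4 17.5% and 38.5%. For SSC1-4 between 5C and DMSO the shares were 43.3% and 82.4%. A member that was not called, above all in RPG4, may therefore still differ. DESeq2 1.42.0, other scalings, filters, cell minimums, batches, blocks and omitted libraries were tried as alternatives. Total UMIs per library were between 15975410 and 34609591 in the original condition, between 5881566 and 10724925 in 5C, between 3889964 and 8062911 in DMSO and between 10833720 and 14807169 in the lines, which sets the counting error of low genes.

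Members called in at least 1 of RPG1 to RPG4 against SSC1-4 and with a mean of 20 CPM or more in any of these classes (23 members) are described by library, and the other 9 by range, count and call. The members and lists were chosen with earlier results of these data known. Class sums of the same library pair by library: their deviations from the group means correlated between 0.128 and 0.393 in 7 libraries with RPG3 and RPG1, and between 0.110 and 0.128 in 2 libraries with RPG3 and SSC1-4. No pair of libraries held the same counts, and no cell name was shared. Methylation files were not used here.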

Additional observations from a re-analysis of the deposited data

Results flagged for a closer look

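In 92 groups of 4 to 10 libraries, 15 held a library that stood apart from the rest of its group by Dixon's criterion, which chance meets in about 1 of 20 groups. Day 12 replicate 2 of RPG3, a library with 7 cells of that class, was high for Impact (205.6 CPM, next 101.7), Inpp5f (54.7, next 30.5) and Ube3a (236.2, next 140.9). In RPG3, Dlk1 was also high in day 23 replicate 2 (9.10 CPM, next 2.91) and Gnas in day 20 replicate 8 (13.6, next 6.32). In RPG1, day 18 replicate 5 was low for Igf2 (35.8 CPM, next 100.3) and high for Mest (69.6, next 16.1), and day 23 replicate 2 was high for Nnat (81.4, next 64.8).

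In the 5C samples, RPG1 was high for Dlk1 in replicate 8 (20.7 CPM, next 2.74), for Nnat in replicate 2 (90.1, next 59.9) and for Sgce in replicate 5 (3.82, next 0). RPG3 was high for H19 in replicate 3 (32.1 CPM, next 15.3), for Kcnq1ot1 in replicate 8 (203.4, next 102.8), for Ppp1r9a in replicate 6 (60.3, next 23.7) and for Sgce in replicate 1 (20.3, next 3.67). The difference between RPG3 and SSC1-4 differed between 5C and DMSO by the interaction test of edgeR, 5C minus DMSO, for Inpp5f (1.96, adjusted p = 0.00593) and Peg3 (1.98, adjusted p = 0.0111), where treatment and day cannot be told apart.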

How the results depend on the processing

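Counts of called members moved by more than 1.5 times as follows, and the cause was not tested. The share of all genes called in these fits is not given, so the counts are not set against other genes. At an adjusted p below 0.01 with a change of 1 natural-log unit, the counts were 1 for RPG1, 13 for RPG2 and 15 for RPG3 against SSC1-4, 0 for meiotic and 2 for neural cells, and 3 in SSC1-4, 0 in RPG1, 3 in RPG3 and 1 for the interaction between 5C and DMSO. With the replicate block by library they were 1 for RPG1, 14 for RPG2, 0 for fibroblast, 0 for meiotic and 1 for neural cells. Within B1 the count for RPG1 was 3. Within B2 it was 0 for RPG1, 13 for RPG2, 12 for RPG3, 0 for meiotic and 0 for neural cells (1 neural library, assumed to vary like SSC1-4), 9 for RPG3 over RPG1 and 0 for RPG3 over RPG2. With sums per batch and day it was 2 for RPG1, 2 for early-pluripotency, 0 for meiotic and 1 for neural cells and 1 for RPG3 over RPG2. DESeq2 gave 1 for early-pluripotency and 3 for meiotic cells, a minimum of 10 cells gave 3, 3 and 12 for early-pluripotency, meiotic and neural cells, and batch as a covariate gave 2 for meiotic cells.

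Leaving out 1 library gave 2 to 6 calls for RPG1, 17 to 19 for RPG2, 24 to 25 for RPG3, 14 to 16 for RPG4, 6 to 10 for fibroblast, 0 to 0 for early-pluripotency and 0 to 1 for meiotic cells, 19 to 23 for RPG3 over RPG1 and 4 to 4 for RPG3 over RPG2. In scTrio-seq2 it gave 0 to 0 for 5C RPG1, 10 to 17 for 5C RPG3, and between treatments 4 to 8 in SSC1-4, 0 to 3 in RPG1, 2 to 7 in RPG3 and 1 to 5 for the interaction, with 1 without DMSO replicate 2 of RPG3 and 1 without DMSO replicate 3 of SSC1-4.

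Signs reversed with the replicate block for Peg10 (-0.12) and Snrpn (-0.021) in RPG1, Ppp1r9a in RPG2 (-0.19), Usp29 in RPG3 (-1.02) and Nnat (-0.29), Peg10 (-0.41) and Peg3 (-0.015) in neural cells. They reversed for Ppp1r9a in RPG2 at a minimum of 10 cells (-0.78) and without day 12 replicate 2 (-0.74), for Nnat in RPG3 within B2 (-0.18), and in neural cells for Airn with DESeq2 (-1.32) and within B2, where 1 neural library stands behind each value, for Airn (-6.04), Mcts2 (0.11), Nnat (-0.77) and Peg10 (-0.75). DESeq2 moved the median log2 fold change of all genes from -0.27 to -0.12 for RPG2, from -0.42 to 0.00 for RPG4, from -0.09 to -0.24 for early-pluripotency and from 0.01 to 0.12 for neural cells, over more genes.

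The numbers that 5C and DMSO samples share in the labels did not pair them (r from -0.02 to 0.05 over 3 numbers in SSC1-4), and as a replicate block they gave 4 calls in place of 5, of which 3 were shared, with Phlda2 and Zrsr1 lost. No paired analysis was possible for RPG4 over SSC1-4, which shared no library, or for RPG3 over RPG2, which shared 1. Nor was one possible between 5C and DMSO in RPG1 or RPG3, which shared fewer than 2 numbers. The interaction was fitted without a term for the sample, although 6 samples of 5C held both RPG3 and SSC1-4 (r from 0.047 to 0.119). By the median of the per-cell CPM, 7 members in place of 13 reached 20 CPM on day 0 and 8 in place of 15 in gPSC-1 passage 1. Low counts limit Airn, Zim1, Magel2, Mirg and Slc22a18.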
